A study of Homo sapiens with 12 samples.

Results

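The platelet-derived growth factor (PDGF) and vascular endothelial growth factor (VEGF) ligands and receptors were followed across A673 cells, a single Ewing sarcoma line that carries the EWS-FLI1 fusion. The genes were taken by their annotated symbols and comprised the ligands PDGFA, PDGFB, PDGFC and PDGFD with the receptors PDGFRA and PDGFRB, and the ligands VEGFA, VEGFB and VEGFC with the receptor KDR. They are 10 of the 18404 genes that had a probe set naming a single gene, and each was measured by 1 such probe set. RNA of the cells was hybridized to 12 Affymetrix HuGene 1.0 ST arrays, 2 in each of 6 groups. The knock-down group was infected with lentivirus carrying an shRNA against FLI1 and its control with lentivirus carrying an shRNA against lacZ, a bacterial gene, and both received Polybrene and puromycin and are labelled 48 h. The treatment protocol describes 24 h with virus and then 48 h of puromycin, so the harvest time of the knock-down arrays was not settled here. The drug groups were an untreated control at time 0, DMSO vehicle for 24 h, and actinomycin D at 5 nM or 50 nM for 24 h. The shRNA control was thus infected and selected while the DMSO control was not, and the labels do not say whether the 2 arrays of a group came from separate cultures. Every p-value here thus reflects array-to-array spread alone, and that spread may be technical.

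PDGF and VEGF ligands are secreted dimers that bind receptor tyrosine kinases on the cell surface, and receptor phosphorylation then recruits adaptor proteins, phosphoinositide 3-kinase, phospholipase C gamma and the RAS pathway. PDGFA and PDGFC act mainly through PDGFRA, PDGFD through PDGFRB, and PDGFB through both receptors. VEGFA drives blood vessel growth through KDR, also called VEGFR2, while VEGFB binds FLT1 and VEGFC acts mainly through FLT4 in lymphatic vessels. PDGFC and PDGFD are secreted as latent proteins whose CUB domain has to be cleaved off, by proteases that include tissue plasminogen activator and urokinase. Actinomycin D intercalates into DNA and blocks transcription, at low doses preferentially that of ribosomal RNA genes.

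Signals are given as deposited log2 values, so a difference of 1 is a doubling. Signals of different probe sets were not read as relative amounts of RNA, though they were set against a common limit to mark dim ones. Array medians lay between 6.67 and 6.83, and the arrays of a group correlated at 0.995 to 0.998. FLI1 itself read 7.30 and 7.08 after FLI1 shRNA, against 8.63 and 8.45 after lacZ shRNA, which is 39.2% of the lacZ level (log2 change -1.35, SE 0.09, adjusted p = 5.4e-06). Of 9 Ewing sarcoma markers 8 were measured and all 8 lay above the 40th percentile of mean signal (6.82). Of 9 endothelial markers 2 lay above it, CLDN5 and EMCN, whereas PECAM1, CDH5, TEK and VWF did not, and none of the 5 measured blood markers did. PDGFC, PDGFD, PDGFRB, VEGFA and VEGFB lay above this limit in mean signal, and PDGFA, PDGFB, PDGFRA, VEGFC and KDR below it, where array signals are compressed towards the background.

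**Figure D1:**
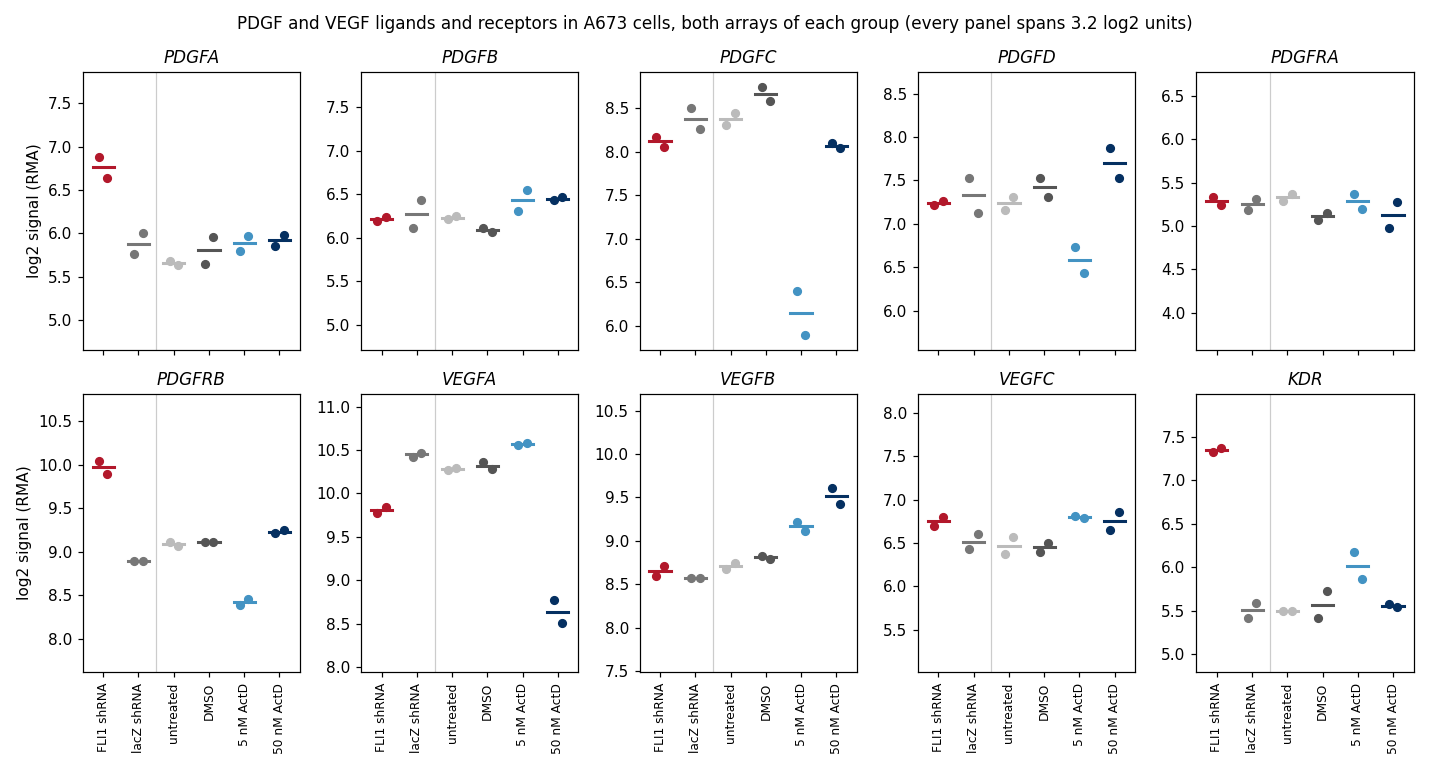
Log2 signal (vertical axis, RMA values) of the 10 genes on both arrays of each group (horizontal axis), with points for arrays, bars for group means and panels of equal height. FLI1 shRNA stands apart for PDGFA, PDGFRB and KDR, 5 nM actinomycin D for PDGFC and PDGFD, and 50 nM for VEGFA, at 8.77 and 8.51.

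The FLI1 knock-down comparison asked which of these genes changed when EWS-FLI1 was reduced. After FLI1 shRNA the receptors KDR and PDGFRB and the ligand PDGFA rose, by 3.59-fold, 2.11-fold and 1.84-fold, and VEGFA fell to 64.4% of its lacZ level. The other 6 genes did not pass the test. A gene was said to have risen or fallen at an adjusted p under 0.05, and 3 of 10 genes rose where 14.6% of all genes tested did, while 1 of 10 fell where 9.28% did. KDR and PDGFRB also changed over 2-fold at an adjusted p under 0.01, which 1.21% of all genes did upwards, and 0 of 10 fell past that threshold, where 0.598% of all genes did. The median change of the 10 genes was 0.07, against -0.005 over all genes. The 10 genes were chosen with earlier results of these data known. Their counts beside shares of all genes, here and below, are thus descriptions and not tests. RNA of whole cultures gives a mean over the A673 cells, so a change in some cells and a change in all cannot be told apart.

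KDR, the main signalling receptor for VEGFA, read 7.33 and 7.37 after FLI1 shRNA, against 5.42 and 5.59 after lacZ shRNA. Both knock-down arrays lay above every other array, and the change was 1.85 (SE 0.12, adjusted p = 3.8e-06). PDGFRB, the receptor for PDGFB and PDGFD, read 10.04 and 9.90 after FLI1 shRNA, against 8.89 on both lacZ arrays. The groups did not overlap and the change was 1.08 (SE 0.07, adjusted p = 3.7e-06). The other PDGF receptor, PDGFRA, read 5.34 and 5.24 after FLI1 shRNA, against 5.18 and 5.31 after lacZ shRNA. These dim arrays overlapped, and the difference of 0.05 had a 95% interval of -0.19 to 0.28.

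Among the PDGF ligands, PDGFA read 6.88 and 6.64 after FLI1 shRNA, against 5.76 and 6 after lacZ shRNA. Its arrays did not overlap and the change was 0.88 (SE 0.13, adjusted p = 0.00055). PDGFC read 8.17 and 8.06 after FLI1 shRNA, against 8.50 and 8.26 after lacZ shRNA. The knock-down arrays were both lower, but the difference of -0.26 did not pass (95% interval -0.59 to 0.07, adjusted p = 0.25). PDGFB and PDGFD overlapped between the groups, with differences of -0.05 (95% interval -0.29 to 0.19) and -0.09 (95% interval -0.44 to 0.25).

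VEGFA, the main angiogenic ligand, read 9.77 and 9.85 after FLI1 shRNA, against 10.42 and 10.47 after lacZ shRNA. It was the 1 gene of the 10 that fell, by 0.63 on the log2 scale (SE 0.09, adjusted p = 0.00042). VEGFB read 8.60 and 8.71 after FLI1 shRNA, against 8.57 on both lacZ arrays, a difference of 0.08 (adjusted p = 0.52). VEGFC read 6.70 and 6.80 after FLI1 shRNA, against 6.43 and 6.60 after lacZ shRNA. Its groups did not overlap, but the difference of 0.24 did not pass (95% interval 0.01 to 0.46, adjusted p = 0.12).

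Leaving out any of the 4 shRNA arrays kept these 4 calls, with changes of 1.76 to 1.93 for KDR, 1.01 to 1.15 for PDGFRB, 0.76 to 1 for PDGFA and -0.67 to -0.59 for VEGFA. PDGFRB also marks pericytes and fibroblasts. After FLI1 shRNA 4 of 9 markers of those cells rose and 0 fell by limma, where 14.6% and 9.28% of all genes did. At 5 nM against DMSO 5 of the 9 rose and 0 fell (30.3% and 23% of all genes), while PDGFRB changed by -0.69. At 50 nM also 5 rose and 0 fell (25.8% and 23.3% of all genes), and PDGFRB did not pass (0.12). With arrays centred on ribosomal protein genes, 1 rose and 2 fell at 5 nM, and 3 rose and 1 fell at 50 nM. COL3A1 averaged 9.43 after FLI1 shRNA and 7.64 after lacZ shRNA, RGS5 7.78 and 6.77, ACTA2 11.62 and 10.62, and COL1A1 9.23 and 8.60. THY1 averaged 10.64 after FLI1 shRNA and 10.84 after lacZ shRNA and DES 6.89 in both, and neither passed (adjusted p = 0.067 for THY1 and 0.97 for DES), though THY1 fell when dim genes were left out. The mean over the list was 7.82 to 7.83 on the FLI1 shRNA arrays and 7.31 to 7.34 on the lacZ shRNA arrays, and LUM, DCN and CSPG4 lay below the 40th percentile of signal (3.59 against 3.55, 5.69 against 5.56 and 5.59 against 5.46). Over the 9 endothelial markers, which bear on KDR, the mean was 6.28 to 6.37 on the FLI1 shRNA arrays and 6.23 to 6.37 on the lacZ shRNA arrays. PECAM1 averaged 5.73 after FLI1 shRNA and 6.29 after lacZ shRNA, while EMCN averaged 10.76 and 9.61. All arrays held RNA of cultures of the A673 line, so these markers describe RNA of that line, and why they changed was not tested.

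The promoters of KDR and PDGFRB are shown because these receptors changed most after FLI1 shRNA, and because FLI1 belongs to the ETS factors, whose sites hold a GGAA core. Windows of 300 bases, 250 before and 50 after an annotated start, come from RefSeq (GRCh38.p14) and run 5′ to 3′ along the gene's strand, with GGAA and its reverse complement TTCC in capitals. The KDR window is chr4:55125546-55125845 (minus strand) and the PDGFRB window chr5:150155796-150156095 (minus strand).
KDR: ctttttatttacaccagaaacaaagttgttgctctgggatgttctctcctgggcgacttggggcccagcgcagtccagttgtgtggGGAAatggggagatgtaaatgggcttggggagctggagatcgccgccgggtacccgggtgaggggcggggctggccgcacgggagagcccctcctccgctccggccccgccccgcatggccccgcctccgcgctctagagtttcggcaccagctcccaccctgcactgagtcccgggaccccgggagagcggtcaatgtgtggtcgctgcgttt
PDGFRB: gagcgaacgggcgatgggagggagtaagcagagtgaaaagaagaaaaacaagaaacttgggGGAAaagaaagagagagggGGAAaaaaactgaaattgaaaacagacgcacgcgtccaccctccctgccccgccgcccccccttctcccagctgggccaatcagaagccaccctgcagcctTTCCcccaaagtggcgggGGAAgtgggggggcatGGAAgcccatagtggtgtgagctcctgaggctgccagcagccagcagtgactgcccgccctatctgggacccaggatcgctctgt
The KDR window held 1 GGAA core and the PDGFRB window 5, where the median of 35116 windows was 3 and 95.5% held at least 1. Of the 10 genes 7 had windows in this table, 11 in all, and PDGFB, PDGFC and VEGFA had none. PDGFA gave 4 of the 11 windows and PDGFRA 2, so the windows are not separate genes. On either strand, 0 of the 11 windows held 2 adjacent copies of GGAA, a form of the repeats that EWS-FLI1 binds, and 3.67% of all windows did. The ETS site CCGGAAG was in 0 of 11 (10.3% of all windows), as was ACGTG, the core of the hypoxia element (21.4% of all). GGGCGG, the GC box, was in 10 of 11 windows and in 45% of all. Those 10 windows were 59.3% to 84.7% G and C, the PDGFRA window without it 47%, and the median of all windows was 58.7%. The part of base content in this count was not tested. ATGCAT, which the study names as a sequence bound by actinomycin D, was in 0 of 11 (3.95% of all). A match is a description of the letters, not a bound site.

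The low dose of actinomycin D was compared with DMSO to see how the drug changed this family. At 5 nM, PDGFC fell to 17.4% of its DMSO level, PDGFD to 55.7% and PDGFRB to 62%. The genes PDGFB, VEGFA, VEGFB, VEGFC and KDR rose by 0.25 to 0.45 on the log2 scale, and all 5 rises were lost when arrays were centred on 57 ribosomal protein genes, which put the median of all genes at -0.23 in place of 0.12. Whether those 57 genes were themselves unaffected by the drug was not tested. The centring thus does not settle whether the deposited or the centred values are nearer the true change. PDGFA and PDGFRA did not pass. In this comparison 5 of 10 genes rose where 30.3% of all genes did, and 3 of 10 fell where 23% did. PDGFC alone passed the 2-fold threshold, downwards, as 7.86% of all genes did, and 0 of 10 passed it upwards, where 2.64% did.

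PDGFC, a ligand of PDGFRA that needs proteolytic activation, read 6.40 and 5.89 at 5 nM, against 8.75 and 8.58 in DMSO. Both drug arrays lay below every array of the other groups (change -2.52, SE 0.15, adjusted p = 1.7e-07). PDGFD, the ligand of PDGFRB that is processed in the same way, read 6.73 and 6.43 at 5 nM, against 7.53 and 7.31 in DMSO. It fell by 0.85 on the log2 scale (SE 0.16, adjusted p = 0.00093), without overlap of the arrays. PDGFRB read 8.39 and 8.45 at 5 nM, against 9.11 on both DMSO arrays. The change was -0.69 (SE 0.07, adjusted p = 1.1e-05), and all 3 falls passed with any of the 4 arrays left out and with ribosomal protein centring (-2.87, -1.20 and -1.04).

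KDR read 6.18 and 5.87 at 5 nM, against 5.42 and 5.73 in DMSO. Its arrays did not overlap and the change was 0.45 (SE 0.12, adjusted p = 0.0094), which ribosomal protein centring brought to 0.10. VEGFB read 9.22 and 9.11 at 5 nM, against 8.83 and 8.79 in DMSO. It rose by 0.36 (SE 0.08, adjusted p = 0.0041), and by 0.004 with the centring. VEGFA read 10.56 and 10.58 at 5 nM, against 10.36 and 10.28 in DMSO. Its change of 0.25 (SE 0.09, adjusted p = 0.03) was -0.10 with the centring. PDGFB, a ligand of both PDGF receptors, read 6.31 and 6.55 at 5 nM, against 6.11 and 6.07 in DMSO. VEGFC, the lymphatic ligand, read 6.81 and 6.79 at 5 nM, against 6.40 and 6.50 in DMSO. The changes of PDGFB and VEGFC, 0.34 (SE 0.11, adjusted p = 0.021) and 0.35 (SE 0.10, adjusted p = 0.014), were -0.01 and -0.005 with the centring. PDGFA differed by 0.08 (95% interval -0.20 to 0.36) and PDGFRA by 0.18 (95% interval -0.06 to 0.41).

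Of the 5 rises only that of VEGFB passed with each of the 4 arrays left out in turn. The call of VEGFA was lost without any 1 of them (0.22 to 0.29, adjusted p = 0.057 to 0.14). That of KDR was lost without DMSO replicate 1 (0.29, adjusted p = 0.1) or 5 nM replicate 1 (0.29, adjusted p = 0.078), and that of VEGFC without DMSO replicate 1 (0.30, adjusted p = 0.089). PDGFB did not pass without DMSO replicate 1 (0.36, adjusted p = 0.067), DMSO replicate 2 (0.33, adjusted p = 0.085) or 5 nM replicate 2 (0.22, adjusted p = 0.16). With quantile normalization applied again PDGFB (0.22, adjusted p = 0.085) and VEGFC (0.26, adjusted p = 0.06) did not pass, nor did VEGFA in a fit of only these 4 arrays (0.25, adjusted p = 0.063).

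The high dose gave another set of changes. At 50 nM, VEGFA fell to 31.3% of its DMSO level and PDGFC to 66.4%. VEGFB rose by 1.64-fold, and PDGFB and VEGFC rose by 0.36 and 0.31 on the log2 scale, of which VEGFB alone still rose with ribosomal protein centring (0.45), with 0.10 for PDGFB and 0.05 for VEGFC. This centring put the median of all genes at -0.16 in place of 0.10. Of the 10 genes 3 rose where 25.8% of all genes did, and 2 fell where 23.3% did. VEGFA alone passed the 2-fold threshold, downwards, as 5.38% of all genes did, and 0 of 10 passed it upwards, where 0.598% did. The DMSO arrays are the same as in the low-dose comparison, so the values of both comparisons are not independent.

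VEGFA read 8.77 and 8.51 at 50 nM, against 10.36 and 10.28 in DMSO, the lowest arrays of the 12 for this gene (change -1.68, SE 0.09, adjusted p = 1.9e-07). It stayed between -1.81 and -1.55 with each array left out. FLI1 read 7.71 and 7.60 at 50 nM, against 8.59 and 8.61 in DMSO, and its part in this result was not tested. VEGFB read 9.61 and 9.42 at 50 nM, against 8.83 and 8.79 in DMSO. It rose by 0.71 (SE 0.08, adjusted p = 5.6e-05), without overlap. PDGFC read 8.10 and 8.04 at 50 nM, against 8.75 and 8.58 in DMSO. Its change of -0.59 (SE 0.15, adjusted p = 0.0076) did not pass without DMSO replicate 1 (-0.51, adjusted p = 0.063) or with quantile normalization applied again (-0.36, adjusted p = 0.078).

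PDGFB read 6.43 and 6.47 at 50 nM, against 6.11 and 6.07 in DMSO, and its change of 0.36 (adjusted p = 0.019) did not pass without any 1 of the 4 arrays (0.34 to 0.38, adjusted p = 0.055 to 0.078). VEGFC read 6.65 and 6.86 at 50 nM, against 6.40 and 6.50 in DMSO. Its change of 0.31 (adjusted p = 0.029) did not pass without DMSO replicate 1 (0.26, adjusted p = 0.15), DMSO replicate 2 (0.35, adjusted p = 0.052) or 50 nM replicate 2 (0.20, adjusted p = 0.19). For the remaining genes the differences that did not pass were 0.12 for PDGFA (95% interval -0.16 to 0.40), 0.28 for PDGFD (-0.07 to 0.63), 0.02 for PDGFRA (-0.22 to 0.25), 0.12 for PDGFRB (-0.04 to 0.27) and -0.01 for KDR (-0.28 to 0.25). With quantile normalization applied again PDGFRB passed (0.33, adjusted p = 0.0053), and PDGFB (0.24, adjusted p = 0.067) and VEGFC (0.21, adjusted p = 0.12) did not.

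**Figure D2:**
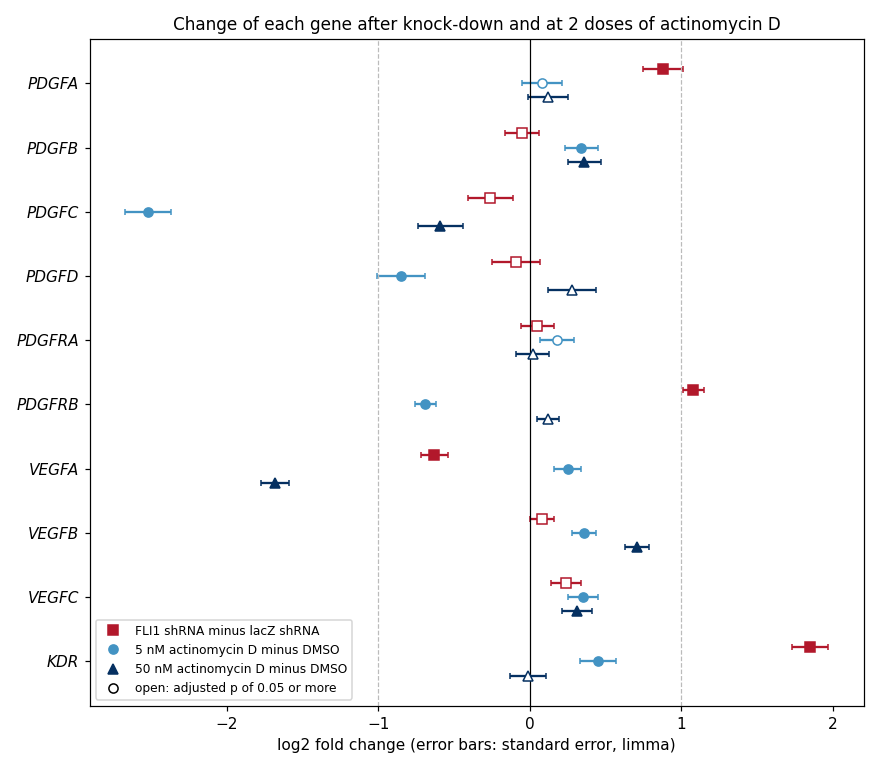
Log2 fold change of each gene (horizontal axis) in FLI1 shRNA against lacZ shRNA and in 5 nM and 50 nM actinomycin D against DMSO, with standard errors from limma as bars, open symbols where the adjusted p was 0.05 or more, and dashed lines at 2-fold. PDGFRB lay at 1.08 after FLI1 shRNA and at -0.69 at 5 nM, and VEGFA at -0.63 after FLI1 shRNA and -1.68 at 50 nM; the filled points at 5 nM to the right of 0 were all lost with ribosomal protein centring.

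The doses were then compared directly, without the DMSO arrays. At 50 nM relative to 5 nM, PDGFC, PDGFD, PDGFRB and VEGFB were higher and VEGFA and KDR lower. The 4 rises stand beside 21.6% of all genes and the 2 falls beside 23.1%. Past the 2-fold threshold, 2 were higher (4.33% of all genes) and 1 lower (6.65%). PDGFC was 3.81-fold higher at 50 nM (log2 1.93, SE 0.15, adjusted p = 1.1e-06) and PDGFD 2.18-fold higher (1.12, SE 0.16, adjusted p = 0.00012). VEGFA showed the opposite order and was lower at 50 nM by 3.81-fold (-1.93, SE 0.09, adjusted p = 3e-08). PDGFRB rose by 0.81 (SE 0.07, adjusted p = 3e-06). VEGFB rose by 0.35 (adjusted p = 0.0048), a call lost without 50 nM replicate 1 (0.26, adjusted p = 0.052). KDR fell by 0.46 (adjusted p = 0.0088), a call lost without 5 nM replicate 1 (-0.31, adjusted p = 0.081). PDGFRA, at -0.16, passed only without 50 nM replicate 2 (-0.31, adjusted p = 0.043). All 6 calls passed with ribosomal protein centring.

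DMSO for 24 h was compared with untreated cells at time 0 as a background. Of the 10 genes 0 passed the limma test, and 0 had an unadjusted p under 0.05. Of the 18404 genes 1 passed the limma test (0.00543%). The difference was largest for PDGFC, which read 8.75 and 8.58 in DMSO, against 8.31 and 8.45 in untreated cells (0.28, adjusted p = 0.71). For comparison, PDGFC changed by -2.52 at 5 nM.

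The change after FLI1 shRNA was also tested against the change at 5 nM, each taken against its own control arrays. The difference of the changes was positive for 5 of 10 genes, where 22.8% of all genes were, and negative for 1, where 23.7% were. Past the 2-fold threshold it was positive for 3 (9.75% of all genes) and negative for 0 (3.39%). PDGFRB rose by 1.08 after FLI1 shRNA and fell by 0.69 at 5 nM, a difference of 1.77 (SE 0.10, adjusted p = 3e-07). For PDGFC, -0.26 after FLI1 shRNA stood against -2.52 at 5 nM, a difference of 2.26 (SE 0.21, adjusted p = 8.7e-06). KDR changed by 1.85 after FLI1 shRNA and by 0.45 at 5 nM (difference 1.40, SE 0.17, adjusted p = 6.6e-05), and PDGFA by 0.88 and 0.08 (difference 0.80, SE 0.18, adjusted p = 0.0039). VEGFA fell after FLI1 shRNA, by 0.63, while its change at 5 nM was 0.25, a difference of -0.89 (SE 0.12, adjusted p = 0.00016) that was -0.52 with ribosomal protein centring (adjusted p = 0.0047). The difference for PDGFD, 0.75 (adjusted p = 0.018), was not past the threshold without DMSO replicate 1 (0.64, adjusted p = 0.072), 5 nM replicate 2 (0.60, adjusted p = 0.068) or lacZ replicate 2 (0.55, adjusted p = 0.071). That for PDGFB, -0.39 (adjusted p = 0.057), passed with the replicate number as a block (-0.39, adjusted p = 0.04), without 5 nM replicate 1 (-0.51, adjusted p = 0.021) and without lacZ replicate 1 (-0.55, adjusted p = 0.009). That for VEGFB, -0.27 (adjusted p = 0.081), passed with dim genes left out (-0.27, adjusted p = 0.046) and with quantile normalization applied again (-0.48, adjusted p = 0.0025).

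The order of the 6 groups differed from gene to gene. FLI1 shRNA was the highest group for PDGFA, PDGFRB and KDR, and its arrays did not overlap the next group, which was 50 nM for PDGFA and PDGFRB and 5 nM for KDR. For PDGFA the other 5 groups formed a run in which each neighbour overlapped the next, and the same held for the 4 lowest groups of KDR. For PDGFRB no pair of neighbours overlapped, although DMSO and untreated cells met at 9.11, and the lowest mean was 8.42 at 5 nM. The lowest group was 5 nM for PDGFC, at 6.14, and for PDGFD, at 6.58, both clear of the group above. For VEGFA the order was 10.57 at 5 nM, 10.45 for lacZ shRNA, 10.32 for DMSO, 10.28 for untreated cells, 9.81 for FLI1 shRNA and 8.64 at 50 nM, and of these neighbours only DMSO and untreated cells overlapped. VEGFB ran the other way at the high dose, with 9.52 at 50 nM on top. For PDGFB and VEGFC all means lay within 6.09 to 6.45 and 6.45 to 6.80, with 1 pair of neighbours each that did not overlap, and for PDGFRA all neighbours overlapped.

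The genes whose signals followed a member most closely over the 12 arrays were named for the 4 members with a change over 2-fold after FLI1 shRNA or in either drug dose against DMSO, as a description only. For PDGFRB they were CDH2, which encodes N-cadherin (Pearson r = 0.986), and CREB3L2 (r = 0.983), which changed by 1.03 and 1.22 after FLI1 shRNA and by -0.75 and -0.89 at 5 nM. For KDR they were the carbonic anhydrase CA12 (r = 0.989) and the growth factor TGFB2 (r = 0.982), with changes of 1.47 and 3.03 after FLI1 shRNA. For PDGFC they were the mRNA capping enzyme RNGTT (r = 0.994) and the nuclear pore gene NUP205 (r = 0.993), with changes of -1.55 and -1.32 at 5 nM. For VEGFA they were the connexin GJC1 (r = 0.992) and the Wnt receptor FZD4 (r = 0.989), with changes of -1.58 and -1.25 at 50 nM. The 12 points are 6 groups of 2 arrays, and the named genes are those of highest r among 2944 to 8019 genes compared. Thus r is not a test.

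Other ligands and receptors of the families were then counted. This list and those that follow were, like the 10 genes, chosen with earlier results of these data known. Their counts beside the shares of all genes are thus descriptions and not tests. The shares come from the fit without ribosomal protein centring, and none is given for counts with it. That centring put the median of all genes at -0.23 at 5 nM and -0.16 at 50 nM, so counts with it also reflect that shift. Of 7 listed genes 6 were measured by a probe set naming a single gene. After FLI1 shRNA 3 rose and 0 fell by limma (4 and 0 at an unadjusted p under 0.05), where 14.6% and 9.28% of all genes did. The median was 0.31, against -0.005 over all genes. PGF, placenta growth factor, a ligand of FLT1, read 10.44 and 10.46 after FLI1 shRNA, against 8.89 and 9.02 after lacZ shRNA. It rose by 1.5 (SE 0.10, adjusted p = 3.9e-06), and both knock-down arrays lay above all others. FLT1, also called VEGFR1, read 6.68 and 6.85 after FLI1 shRNA, against 5.73 and 5.85 after lacZ shRNA. It rose by 0.97 (SE 0.11, adjusted p = 0.00011), again without overlap. The receptor-like gene PDGFRL rose by 0.34 (adjusted p = 0.023). The co-receptors NRP1 and NRP2 differed by 0.07 and 0.28 and the lymphatic receptor FLT4 by -0.26, and none of these passed.

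At 5 nM NRP1 read 8.41 and 8.08, against 8.67 and 8.82 in DMSO, and fell by 0.50 on the log2 scale (adjusted p = 0.0024). PGF (0.53), NRP2 (0.47), FLT4 (0.42) and PDGFRL (0.32) rose at 5 nM, 4 of 6 where 30.3% of all genes did, but with ribosomal protein centring 0 of the 6 genes rose and 1 fell (median 0.02 against -0.23 over all genes). PGF read 8.96 and 8.68 at 5 nM, against 8.25 and 8.33 in DMSO, while untreated cells read 8.83 and 8.93. The 5 nM arrays of PGF thus lay around the untreated level, and DMSO differed from untreated cells by -0.59 (adjusted p = 0.19). At 50 nM FLT1 rose by 0.40 (adjusted p = 0.012) and the other 5 did not pass, where 25.8% of all genes rose, and with the centring 0 rose and 1 fell.

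Of 17 genes for enzymes that process the ligands and for proteins that bind them, 8 rose and 0 fell after FLI1 shRNA by limma (8 and 0 at an unadjusted p under 0.05), where 14.6% and 9.28% of all genes did, with a median of 0.18 against -0.005 over all genes. They included the plasminogen activators PLAU, or urokinase, at 2.17 (SE 0.09) and PLAT, the tissue type, at 1.23 (SE 0.08), and the matricellular genes CCN2 (1.28, SE 0.08) and CCN3 (1.12, SE 0.13). At 5 nM 10 rose and 1 fell, where 30.3% and 23% of all genes did (median 0.29 against 0.12), led by CCN2 at 2.00 and PLAU at 0.99, and 6 rose and 4 fell with ribosomal protein centring (median -0.07 against -0.23). At 50 nM 5 rose and 0 fell (7 and 0 unadjusted), where 25.8% and 23.3% of all genes did (median 0.22 against 0.10), among them PLAU (0.69) and SPARC (0.42), a PDGF-binding matrix protein, and with the centring 1 rose and 3 fell.

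Among the intracellular signalling genes most fell at the low dose. Of 50 listed genes 37 were measured, and at 5 nM 25 of 37 fell, 17 of them over 2-fold, and 4 rose, with a median of -0.85 against 0.12 over all genes. Of all genes 23% fell there, 7.86% over 2-fold, and 30.3% rose. FYN, a kinase of the SRC family, changed by -2.38 (SE 0.10), PIK3CB, a catalytic subunit of phosphoinositide 3-kinase, by -2.13 (SE 0.14), the protein kinase C gene PRKCA by -2.05 (SE 0.07) and SOS1, an exchange factor for RAS, by -2 (SE 0.07). With ribosomal protein centring 31 of 37 fell and 0 rose (median -1.21 against -0.23 over all genes). At 50 nM 15 fell, 8 of them over 2-fold, and 6 rose, where 23.3% of all genes fell, 5.38% over 2-fold, and 25.8% rose, with the adaptor NCK1 at -2.18 (SE 0.10), FYN at -1.61 (SE 0.10), the ubiquitin ligase CBLB at -1.37 (SE 0.09) and SOS2 at -1.33 (SE 0.08), and with the centring 22 fell and 1 rose. At 50 nM relative to 5 nM 23 rose and 4 fell, where 21.6% and 23.1% of all genes did. After FLI1 shRNA 10 rose and 1 fell, where 14.6% and 9.28% of all genes did, with the adaptors GAB1 (0.84) and SHC1 (0.60), CBLB (0.57) and VAV3 (0.54) the largest changes.

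Hypoxia-response genes were counted because VEGFA belongs to that response. After FLI1 shRNA, where VEGFA fell, 7 of 28 measured genes rose and 1 fell, where 14.6% and 9.28% of all genes did (median 0.09 against -0.005), with the hypoxia-inducible factor EPAS1 at 1.65 (SE 0.10), the peptide hormone ADM at 1.06 (SE 0.14), the collagen prolyl hydroxylase P4HA2 at 0.98 (SE 0.09) and DDIT4, an inhibitor of mTORC1 signalling, at 0.84 (SE 0.14). At 5 nM 12 rose and 6 fell, where 30.3% and 23% of all genes did (median 0.17 against 0.12), and with ribosomal protein centring 8 rose and 15 fell (median -0.18 against -0.23 over all genes). ADM (1.63), the glucose transporter SLC2A3 (1.29), the oxygen sensor EGLN3 (1.23) and ANKRD37 (1.10) led the rises. At 50 nM, where VEGFA fell most, 9 rose and 7 fell (4 and 13 with the centring), shares near the 25.8% and 23.3% of all genes, with ADM at 1.41 (SE 0.14), ANKRD37 at 0.74, the glucose transporter SLC2A1 at -0.61 and the glycolytic regulator PFKFB3 at -0.60.

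Of 25 other angiogenic factors 5 rose and 3 fell after FLI1 shRNA, where 14.6% and 9.28% of all genes did. The list was not split by whether a factor promotes or restrains vessel growth, so its counts give no direction for that growth. TGFB2 rose by 3.03 (SE 0.09), the matricellular gene CCN1 by 1.52 (SE 0.07) and the semaphorin SEMA3A by 1.44 (SE 0.10), and the ephrin EFNB2 fell by 1.56 (SE 0.08). At 5 nM 10 rose and 5 fell, where 30.3% and 23% of all genes did, and 4 and 11 with ribosomal protein centring (median -0.19 against -0.23 over all genes). SEMA3A changed by -2.23 (SE 0.10) there, opposite in sign to the knock-down, SEMA3C by -0.96, CCN1 by 1.99 (SE 0.07) and ANGPTL4 by 0.89. At 50 nM 9 rose and 4 fell (4 and 6 with the centring), where 25.8% and 23.3% of all genes did, with EFNB2 at -1.34, the Notch ligand JAG1 at -1.11, the ephrin receptor EPHB4 at -1.08 and the chemokine CXCL8 at 1.17.

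**Figure D3:**
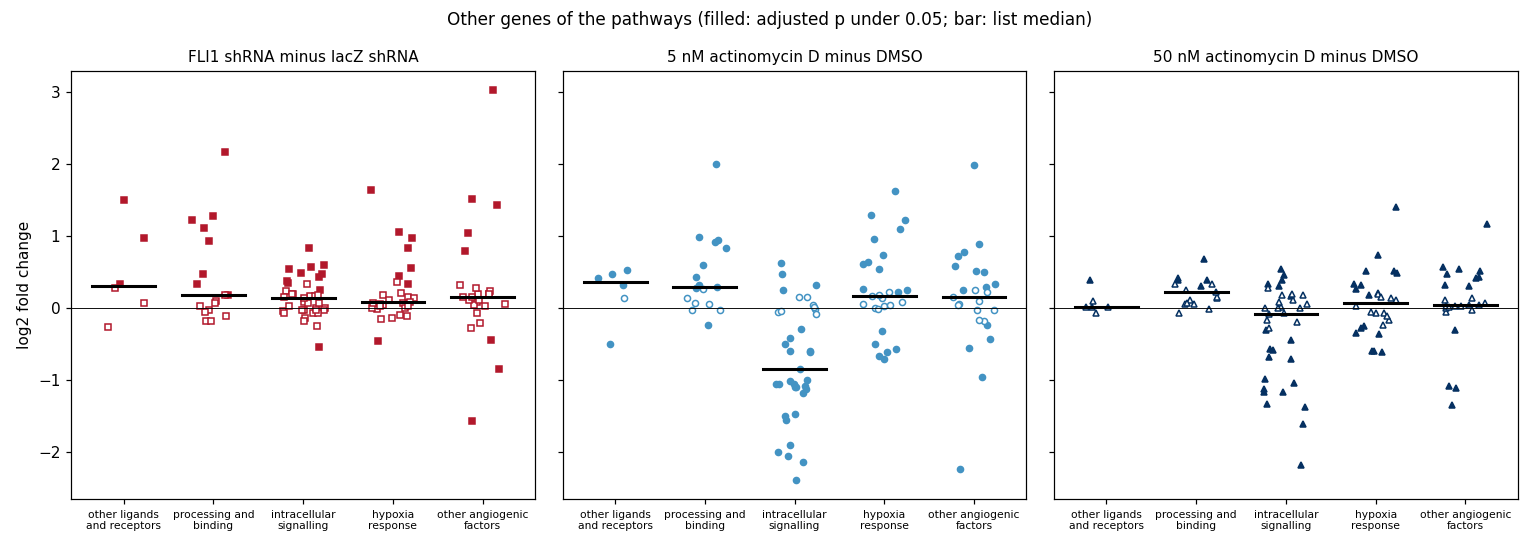
Log2 fold change (vertical axis) of the measured genes of 5 lists (horizontal axis) in the 3 comparisons, with filled symbols at an adjusted p under 0.05, open symbols otherwise, and a bar at each list's median. The signalling list has its median at -0.85 at 5 nM, and PLAU (2.17) and TGFB2 (3.03) stand highest in their lists after FLI1 shRNA; with ribosomal protein centring all values at 5 nM and 50 nM shift down.

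The length of a gene, from its RefSeq start to end, moved with the change at the low dose. Over 16898 protein-coding genes the Spearman correlation between span and change was -0.52 at 5 nM, -0.29 at 50 nM and 0.13 after FLI1 shRNA, and over the 10 genes it was -0.50, -0.19 and -0.08, given as descriptions across genes of the same arrays. PDGFC (211 kb) and PDGFD (257 kb), which fell at 5 nM, are the longest of the 10, and coding genes over 100 kb had a median of -0.49 there, with the middle 50% of them between -1.2 and 0.04. PDGFD at -0.85 lay inside that range, PDGFC at -2.52 below it and VEGFC (109 kb) at 0.35 above it. PDGFRB (42 kb) at -0.69 lay below and KDR (47.1 kb) at 0.45 above the range of genes of 30 to 100 kb, which was -0.47 to 0.20. VEGFA (16.3 kb) and VEGFB (4.68 kb) are short. At 50 nM VEGFA at -1.68 lay far below the range of genes of 10 to 30 kb (-0.20 to 0.28), and VEGFB at 0.71 above that of genes under 10 kb (0.02 to 0.37). The signalling list had a median span of 89.4 kb and the hypoxia list 31.8 kb. The part of span in these results was not tested.

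**Figure D4:**
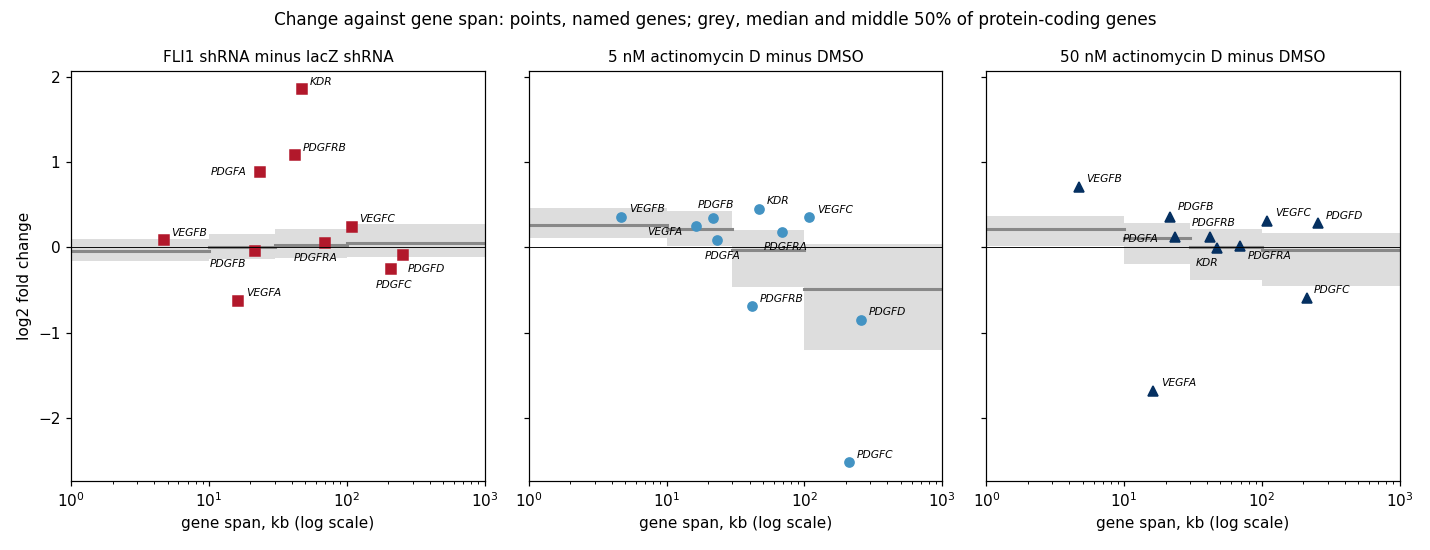
Log2 fold change (vertical axis) against gene span in kb (horizontal log axis) for the 10 genes in the 3 comparisons, with the median (grey line) and the middle 50% (grey band) of protein-coding genes in 4 bins of span. At 5 nM the grey medians lie at 0.26, 0.21, -0.03 and -0.49 with increasing span, PDGFC lies below its band and VEGFC above.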

How the data were processed

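RNA of A673 cells from 6 groups of 2 arrays was measured on Affymetrix arrays. As deposited, the values were log2 signals from RMA in the affy package, run by the authors in a version that these sources do not state. RMA equalizes the arrays' distributions, so a change shared by most genes is not visible. Depth has no meaning for arrays, and their number, 2 per group, limits the precision.

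The table held 32321 rows, of which the platform annotation gives 19158 a single gene symbol, 1388 several and 11775 none. Only the first kind was tested. For 637 genes with several probe sets the one with the highest mean was used, which left 18404 genes. 0 columns lacked a sample.

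In R 4.3.3, limma 3.58.1 fitted a mean per group over 12 arrays (lmFit, contrasts.fit, eBayes; 6 residual and 4.45 prior degrees of freedom), with Benjamini-Hochberg adjustment over 18404 genes in each of 6 comparisons. Genes rose or fell at an adjusted p under 0.05. The fit was tested on simulated data for FLI1 against lacZ shRNA with 200 of 18404 genes changed. It recovered 57.5% of genes changed by 0.5, 94.7% by 1 and 98.6% by 2 log2 units, with 7 false calls among 18204. The simulated noise was independent and Gaussian, and in the data 2691 genes rose and 1707 fell in this comparison. These rates check the code and do not carry over to the data.

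Members and gene lists were chosen with earlier results of these data known. Named were all 10 members, FLI1 and EWSR1 as a check of the knock-down (EWSR1 changed by -0.29, adjusted p = 0.017), all other ligands and receptors, up to 4 called genes of largest change per list, and 2 genes of highest correlation per member changed over 2-fold in a comparison with lacZ shRNA or DMSO, among genes whose SD was at least 0.5 times that of the member. Markers named in the text were taken from the marker lists. Spans and promoters come from RefSeq (GRCh38.p14). Figures were drawn with matplotlib 3.10.9.

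Alternatives were a replicate block, a fit of only the arrays compared, leaving out dim genes, averaging probe sets, testing all rows, repeated quantile normalization, centring each array on 57 ribosomal protein genes, robust eBayes with a trend, leaving out each array, and the thresholds of a 2-fold change at an adjusted p under 0.01. After the data were seen, a block with crossed replicate numbers was added. Replicate numbers were not taken to pair samples.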

Additional observations from a re-analysis of the deposited data

Results flagged for a closer look

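A probe set that the platform annotation assigns to both EBF1 and PDGFRB was not used for any gene above, and it carried a signal of its own. It read 7.53 and 7.64 after FLI1 shRNA, against 6.44 and 6.52 after lacZ shRNA, a change of 1.11 (SE 0.11, adjusted p = 4e-04 with all rows of the table in the limma fit). This is close to the change of the probe set naming PDGFRB alone, 1.08. The probe sets differed at the drug doses. At 5 nM the shared probe set changed by -0.33 (adjusted p = 0.045) and that of PDGFRB by -0.69, and at 50 nM relative to 5 nM by 0.06 (adjusted p = 0.72) and 0.81. Which of the named genes the shared probe set measured was not tested.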

How the results depend on the processing

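Of 730 values of single genes under an alternative, 687 kept their side of the threshold, 33 lost the call, 7 gained one and 3 called values changed sign. Among the 687 were 35 that changed sign without passing either way. The 3 were PDGFB (-0.01), VEGFA (-0.10) and VEGFC (-0.005) at 5 nM with ribosomal protein centring. That centring, which by construction shifts every value of a comparison alike, left 0 rises at 5 nM and 1 at 50 nM. With dim genes left out, which tests 5 of the 10 genes, 1 rose after FLI1 shRNA, 2 at 5 nM and 1 at 50 nM, 1 was lower at 50 nM than at 5 nM, and the knock-down minus 5 nM difference was positive for 3 and negative for 2. Repeated quantile normalization gave 3 rises at 5 nM, 1 fall at 50 nM and 2 negative differences. At 2-fold and an adjusted p under 0.01 there were 0 falls after FLI1 shRNA, 0 rises and 1 fall at 5 nM and at 50 nM, 2 rises and 1 fall between doses, and 3 positive and 0 negative differences. With each array left out in turn, rises at 5 nM numbered 1 to 3, rises and falls at 50 nM 1 to 2 each, rises between doses 3 to 4 and falls 1 to 3, and positive differences 4 to 5 and negative 1 to 2. In these fits the lone array was assumed to vary like the other groups.

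Replicate numbers marked no shared culture in the labels, and deviations of same-numbered arrays correlated at -0.26 to 0.17. With the replicate block the negative differences numbered 2 (PDGFB joined at -0.39), no other call of the 10 genes changed, and genes called after FLI1 shRNA numbered 2568 up and 1635 down, against 2691 and 1707. Crossing the numbers, an alternative added after the data were seen, gave 3174 and 2400 there and 1 and 0 for DMSO against untreated cells.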

Other observations

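VEGFD, a lymphatic ligand, was named only by a probe set shared with a readthrough transcript. It was among the 7 listed other ligands and receptors but not among the 6 measured, so it entered no count of rises or falls. That probe set read 5.01 and 4.76 after FLI1 shRNA, against 4.57 and 4.60 after lacZ shRNA (0.30, adjusted p = 0.27). At 50 nM it read 4.41 and 3.98, against 4.65 and 4.66 in DMSO (-0.46, adjusted p = 0.043 in the limma fit of all rows). These are among the dimmest signals given here.

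In DMSO-treated and untreated cells PGF differed more than any of the 10 genes did, with 8.25 and 8.33 in DMSO, against 8.83 and 8.93 in untreated cells. The difference of -0.59 did not pass over 18404 genes (adjusted p = 0.19), though the arrays did not overlap.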
